A study of Mus musculus with 12 samples.

Results

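Gene abundance was described in the colonic epithelium of the control mice of the series, taken as the 8 libraries titled Control-TMX and Control-OIL of 12 libraries in all. Control TMX held 4 mice labelled wild-type whose source names begin with VilCreER and which were treated with tamoxifen. In this line the Villin promoter, active in intestinal epithelium, drives a Cre recombinase that tamoxifen activates, and the series text presents these animals as a control for the drug itself. Control OIL held 4 mice labelled wild-type whose source names begin with EVCER and which were given sunflower oil. All 8 were C57BL/6 mice of 6 weeks. The labels do not spell out the alleles behind EVCER, and the groups differ in both line and treatment, so the parts of these in a difference between them cannot be told apart. The other 4 libraries, labelled as intestinal knockouts of Ehf, were not compared here.

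The colon is lined by a sheet of epithelium folded into crypts and renewed from stem cells at the crypt base. Absorptive colonocytes take up water, salt and the fatty acids made by gut bacteria, goblet cells secrete the mucus that keeps bacteria away from the surface, and rarer enteroendocrine and tuft cells release hormones and sense the contents of the gut. Cdx and Hnf4 transcription factors maintain intestinal identity, and Hox genes record position along the body axis. The authors loosened the epithelium of each colon with EDTA and vortexing and removed the smooth muscle, so each library mixes crypt and surface cells of the colon of 1 mouse. In such bulk RNA, fewer cells of a type and less RNA per cell cannot be told apart.

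The 8 libraries held 7421411 to 10344161 counted reads. Of each library, mitochondrial genes held 10.7% to 26.3% and the noncoding gene Gm26917 held 4.78% to 11.2%, which left 55.8% to 77.2% for nuclear protein-coding genes. Xist stood at 1448 to 1900 CPM (counts scaled to an equal library total with TMM factors) in replicates 1 and 2 of both groups and at 1.66 to 3.73 CPM in replicates 3 and 4, where the Y-linked Ddx3y was counted, so replicates 1 and 2 were female and 3 and 4 male in both groups. The labels do not give the sex. Over the genes at 10 CPM or more in every library, the first principal component of log2 CPM held 47.2% of the variance and set Control TMX replicates 1 and 2 (scores of -0.48 and -0.54) apart from Control OIL replicate 1 (0.59). The second held 21.8% and set Control OIL replicates 3 and 4 (0.52 and 0.66) apart from the others (-0.36 to -0.08). Results that move with these libraries are given library by library below.

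CPM were scaled with TMM factors. Levels of different genes were compared per length, as CPM per kb of exon. Ranks and sums given in CPM describe shares of counts and are no comparison of levels between genes. Values per kb are given as mean ± SD over the 8 libraries (n = 8) unless a group is named. A gene was called stable when it reached 10 CPM in each of the 8 libraries, its coefficient of variation (CV) was at most 20% in each group, its higher group mean exceeded the lower by at most 25% and edgeR did not call it between the groups. At 10 CPM, counting error alone gives a CV of 10.9% in a library of median depth.

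Of 55304 gene symbols, 13783 reached 1 CPM in all 8 libraries, 7896 reached 10 CPM and 1158 reached 100 CPM. These included 11685, 7654 and 1125 of the 21787 nuclear protein-coding genes. Of 33 genes at 1000 CPM or more in every library, 21 were nuclear protein-coding genes. The counts of nuclear protein-coding genes were spread over many genes: the leading 10 held 8.51%, the leading 100 held 19.5%, and 1028 genes were needed to reach 50%. The 100 leading genes of all kinds held 32.6% to 52.1% of a library's counts, with a mean of 42.9% ± 6.79, and 23.5% when mitochondrial genes and Gm26917 were left out. Ranking by length mattered: 50 of the leading 100 genes by CPM were also among the leading 100 by CPM per kb, and the median exon length was 5.75 kb in the former and 2.00 kb in the latter.

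The libraries carried the markers of the labelled tissue. All 13 epithelial markers reached 10 CPM in every library, among them the adhesion molecules Epcam at 429 ± 28.6 CPM per kb and E-cadherin (Cdh1) at 234 ± 9.36, and the brush border protein villin (Vil1) at 198 ± 21.7. All 14 colonocyte markers and 9 of 10 goblet markers did so as well. Of the 16 markers listed for the small intestine, 8 reached 1 CPM in all 8 libraries and 4 reached 10 CPM: Reg3b, given below, the protease gene Mep1a at 65.6 ± 13.7 CPM per kb, the glucose carrier Slc5a1 at 31.7 ± 3.58 and the alkaline phosphatase gene Alpi at 10.5 ± 4.53. Lct, which encodes lactase, stood at 0.153 ± 0.16 CPM per kb, and the Paneth cell defensin gene Defa24 had a median of 0 and a highest value of 1.23. Summed over the list, the level was 604 to 630 CPM in Control TMX and 726 to 3038 CPM in Control OIL. Gene by gene, 5 of the 8 tested members were higher in Control TMX, with a median log2 difference of 0.33. Alpi was among these, at 14.4 ± 2.06 CPM per kb in Control TMX and 6.67 ± 2.00 in Control OIL. Of 12 stem and crypt markers, 9 reached 10 CPM in every library, with Lrig1 at 29.0 ± 3.16, the stem cell receptor Lgr5 at 1.14 ± 0.326 and Olfm4, a stem cell marker of the small intestine, at 0.0297 ± 0.0444 CPM per kb.

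Genes of other tissues were measurable. Summed over each list, T cell markers reached 7.96 to 23.7 CPM, markers of nerve and glia 2.79 to 6.82, endothelial markers 12.1 to 21.6, B and plasma cell markers 38.1 to 117, myeloid markers 46.1 to 207, smooth muscle markers 74.6 to 184 and fibroblast markers 350 to 788 CPM. The plasma cell gene Mzb1 had no count in any library, while the immunoglobulin genes Igkc and Igha stood at 26.9 ± 8.64 and 16.8 ± 8.30 CPM per kb. The collagen gene Col1a1 was the highest fibroblast marker per length at 20.5 ± 8.01.

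Mucus and barrier products led the nuclear protein-coding genes. Muc2 (chromosome 7, 141690340 to 141754693, plus strand), the gel-forming mucin of goblet cells, was first at 2537 ± 573 CPM per kb. It stood at 2442, 2911, 3218 and 2835 in Control TMX replicates 1 to 4 and at 2439, 2944, 1442 and 2064 in Control OIL replicates 1 to 4, so Control OIL replicate 3 was the lowest. Car1, a carbonic anhydrase of colonocytes, came second at 1765 ± 868, with 1685, 1455, 2363 and 3035 in Control TMX and 2312, 2090.3, 477 and 698 in Control OIL. Control OIL replicates 3 and 4, the males of that group, lay below the other 6 libraries, and the part of sex was not tested for this gene. Lypd8 (chromosome 11, 58379043 to 58390728, plus strand), a secreted protein that binds flagella and keeps motile bacteria from the epithelium, came next at 1608 ± 176 and was the highest gene to pass as stable. Its lowest value, 1447, lay above the highest value of the gene ranked next, Krt8, at 1238. That was the only pair of neighbours among the 25 leading genes whose ranges over the 8 libraries did not overlap, so the order within the list is otherwise not resolved by the spread between mice.

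The other leading genes fell into a few roles. Mucus components were Fcgbp, an IgG-Fc-binding mucus protein, at 1069.6 ± 199, Clca1, a secreted protease that processes mucus, at 932 ± 213, the lectin-like Zg16 at 599 ± 87.1, and the membrane mucin Muc3 at 730.3 ± 122 CPM per kb. Agr2, a disulfide isomerase needed for mucin folding, stood at 459 ± 155. Defence genes were Dmbt1, a scavenger-receptor protein that binds bacteria, at 998 ± 167, and Pigr, the receptor that carries IgA into the lumen, at 761 ± 139.2. Structural and adhesion genes were the keratins Krt8 at 1096 ± 125 and Krt19 at 805 ± 84.9, Actb at 824 ± 57.1 and Epcam, while Eef1a1, Eef2 and Rplp1 belong to translation. Guca2a, which encodes the hormone guanylin that drives salt and water secretion, stood at 557 ± 169. The plot of 24 of the 25 leading genes by library shows which were tight and which were not.

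**Figure D1:**
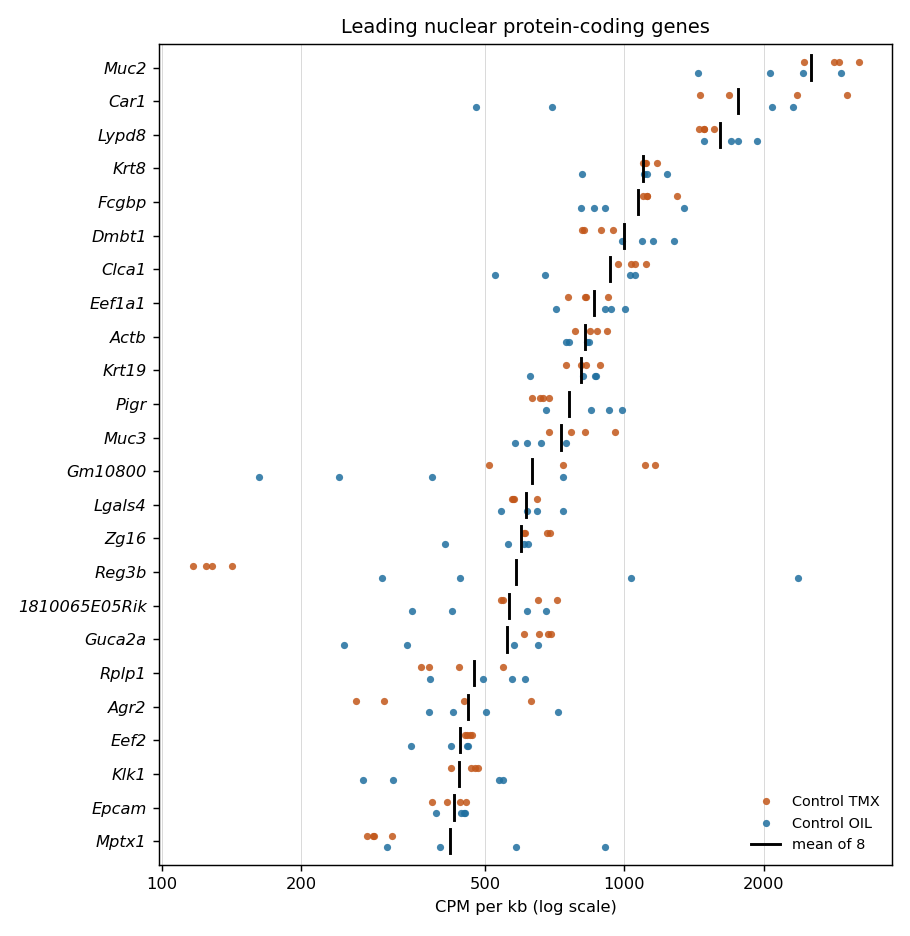
Level of 24 of the 25 leading nuclear protein-coding genes in CPM per kb on a log scale, with 1 point per library, 4 Control TMX and 4 Control OIL libraries per gene, and the mean of 8 as a black bar. Muc2 has the highest mean (2537), Lypd8 and Epcam are tight, and Reg3b, Car1 and Gm10800 spread widely.

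Among these 25, the range of Reg3b was the widest, 20.4-fold between the lowest and highest library. Reg3b encodes a secreted lectin that acts on bacteria, and its mean of 583 ± 787 CPM per kb describes no library well. The 4 Control TMX libraries stood at 125, 117, 142 and 128 and the 4 Control OIL libraries at 441, 300.1, 2374 and 1033. The groups did not overlap, yet edgeR did not call the difference (log2 fold change of -3.02 ± 0.68 SE for Control TMX minus Control OIL, adjusted p = 0.199). Guca2a showed another pattern, with 608, 654, 683 and 695 in Control TMX, 576, 651, 247 and 339 in Control OIL and the lowest values again in Control OIL replicates 3 and 4.

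At the other end of the scale of variation, the 8 genes with the lowest CV within groups among those at 100 CPM or more included Golgb1, Glg1 and Trappc10. Golgb1, the Golgi protein giantin, ranged from 41.6 to 44.6 with a median of 43.1 CPM per kb. Glg1, a Golgi sialoglycoprotein, ranged from 28.8 to 31.4 with a median of 29.8, and Trappc10, a subunit of a complex that tethers transport vesicles, from 18.3 to 20.4 with a median of 19.3. Others were Edem1, which helps clear misfolded proteins from the endoplasmic reticulum, Atrnl1, Glyr1 and Zfp106. The CV within groups leaves out a shift between them. Atrnl1 was at 42.5 to 45.1 CPM per kb in Control TMX and 35.6 to 36.6 in Control OIL, which edgeR did not call (adjusted p = 0.244). The 8 with the highest CV were Reg3b, the phosphodiesterase gene Pde9a, the mitochondrial ribosomal RNAs mt-Rnr1 and mt-Rnr2, the RNA component Rmrp, Mir6236, Gm23935 and CT010467.1. The median CV within groups of all genes at 10 CPM or more was 11.8% (quartiles of 8.70% and 15.9%).

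Nuclear noncoding RNAs also took large shares. By CPM the leading ones were Gm26917, Gm23935, Malat1, Rn7sk and Neat1. Gm26917 (chromosome 17, 39843013 to 39846341) lies next to CT010467.1 (39846353 to 39848827), which is annotated as ribosomal RNA. Gm23935 is annotated as a miRNA of 57 bases. Whether counts of Gm26917 and Gm23935 come from ribosomal RNA was not tested. Malat1, a nuclear RNA found in most cells, stood at 2205 ± 619 CPM per kb and Neat1, the scaffold of paraspeckles, at 299 ± 111. Rn7sk, which restrains transcription elongation, stood at 10549 ± 2400.2. Their levels per kb cannot be set against mRNA as copies per cell, since the labels do not say how ribosomal RNA was removed from the total RNA.

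The mitochondrial counts covered part of the mitochondrial genes. The cytochrome oxidase subunit mt-Co1 reached 3810668 counts over the 8 libraries, mt-Nd1 410267 and mt-Cytb 407945. In contrast, mt-Atp6, mt-Atp8, mt-Co3 and mt-Nd4l had 0 counts in all 8 libraries, mt-Co2 had 3 and mt-Nd3 had 11. With the tRNA genes between them, these 6 genes lie next to each other between positions 7013 and 10173 of the mitochondrial genome. Chromosome 1 of GRCm38 carries annotated unprocessed pseudogenes between 24611535 and 24616197 in the GENCODE M21 annotation. The transcript of mt-Co2 matched that of Gm28661 over 681 of 681 aligned bases, mt-Atp6 matched Gm10925 over 678 of 678, mt-Co3 matched Gm28437 over 783 of 783 and mt-Nd4l matched Gm10222 over 294 of 294, and mt-Nd3 differed from Gm28438 by 1 edit in 345 bases. The longer mt-Nd4 matched Gm28439 over 876 of 876 bases of a transcript of 1378 and had 124946 counts, and mt-Atp8, at 0 counts, was 57.8% identical to its closest annotated pseudogene. The transcript of mt-Co1, the most counted of these genes, has 1545 bases and was 98.8% identical to Gm29216 over the 492 bases that aligned. The closest of these pseudogenes to mt-Nd1, mt-Nd2, mt-Nd5, mt-Nd6 and mt-Cytb, all of which were counted, were 50.1% to 57.1% identical over the aligned bases. The pseudogenes Gm28661, Gm28437, Gm10222 and Gm10925 themselves held 22, 15, 0 and 69 counts, Gm28438 and Gm28439 held 10 and 0, and Gm29216 held 2418. Reads that map to more than 1 place were left out by the counting, per the file headers, so these zeros cannot be read as absence of expression.

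Transcription factors bind DNA and set which genes a cell transcribes. Of 511 listed genes, 230 reached 10 CPM in all 8 libraries, 160 of these were stable, 28 had no count, and the class held 2.98% ± 0.198 of nuclear protein-coding counts. Elf3, an ETS factor of epithelial cells, led at 146 ± 23.9 CPM per kb, with 197, 161, 130.4 and 129 in Control TMX and 123, 146, 146.7 and 135.02 in Control OIL. Its 2 highest values were those of Control TMX replicates 1 and 2. Klf4, which promotes goblet cell maturation and cell cycle exit, stood at 143 ± 16.4, and each Control TMX value (159, 152, 167 and 146) lay above each Control OIL value (134.5, 139.03, 127 and 118). The group means still met the stable limit, and edgeR did not call the difference (adjusted p = 0.29).

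The factors of intestinal identity were high and mostly stable. Hnf4a, a nuclear receptor that drives genes of absorptive cells, stood at 131 ± 9.77 CPM per kb, with 134, 144, 134.9 and 136 in Control TMX and 110.0, 129.7, 129.7 and 130.3 in Control OIL, where only replicate 1 was low. Cdx1, a homeobox factor of intestinal identity, stood at 106 ± 13.7, and its partner Cdx2 at 71.1 ± 13.3. Cdx1 was stable, whereas Cdx2 fell short of the limit because Control OIL replicates 3 and 4 were at 54.5 and 49.4 CPM per kb against 68.4 to 87.1 in the other 6 libraries. Ehf, the ETS factor deleted elsewhere in the series, passed as stable at 69.6 ± 10.2, with 60.5, 60.8, 58.6 and 68.8 in Control TMX and 86.1, 82.5, 71.3 and 68.5 in Control OIL. Its group means, 62.2 in Control TMX and 77.1 in Control OIL, were only just within the limit set for stable genes. Atoh1, which commits cells to the secretory lineage, was stable at 31.3 ± 5.34, and Gata6 was stable at 10.02 ± 0.636, while Gata4, a factor of the small intestine, was near 0 at 0.082 ± 0.0781.

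Further leading factors were Mxd1, an antagonist of Myc, at 91.9 ± 19.8, Klf5, which favours proliferation in crypts, at 72.0 ± 7.99, the differentiation inhibitor Id1 at 71.9 ± 8.94, Tfcp2l1 at 65.5 ± 15.8, the immediate early factors Fos at 58.7 ± 10.1 and Junb at 58.7 ± 12.5, Klf6 at 52.9 ± 9.18, and Creb3l1 at 52.7 ± 6.74 CPM per kb. Klf5, Id1, Fos, Klf6 and Creb3l1 were stable. Mxd1, Tfcp2l1 and Junb were not. Among the 15 leading factors, the ranges of all neighbours in the order overlapped.

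Of 49 nuclear receptors, the ligand-regulated factors for hormones, bile acids and fats, 27 reached 10 CPM in all 8 libraries and 17 were stable. After Hnf4a, whose range did not overlap that of the next, came the vitamin D receptor Vdr at 57.5 ± 12.2, the mineralocorticoid receptor Nr3c2 at 45.7 ± 8.51, Esrra at 39.4 ± 7.43, the bile acid receptor Nr1h4 at 33.4 ± 4.06, the xenobiotic receptor Nr1i2 at 33.2 ± 3.34, Ppard at 26.2 ± 7.55 and Pparg at 22.5 ± 4.83 CPM per kb. Vdr ranged from 52.0 to 77.3 in Control TMX and from 46.3 to 54.7 in Control OIL, with overlap. In 31 of 36 tested receptors the level was higher in Control TMX, against 7399 of all 15216 genes tested, with a median log2 difference of 0.18 against -0.01 over all of them, and none was called.

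**Figure D2:**
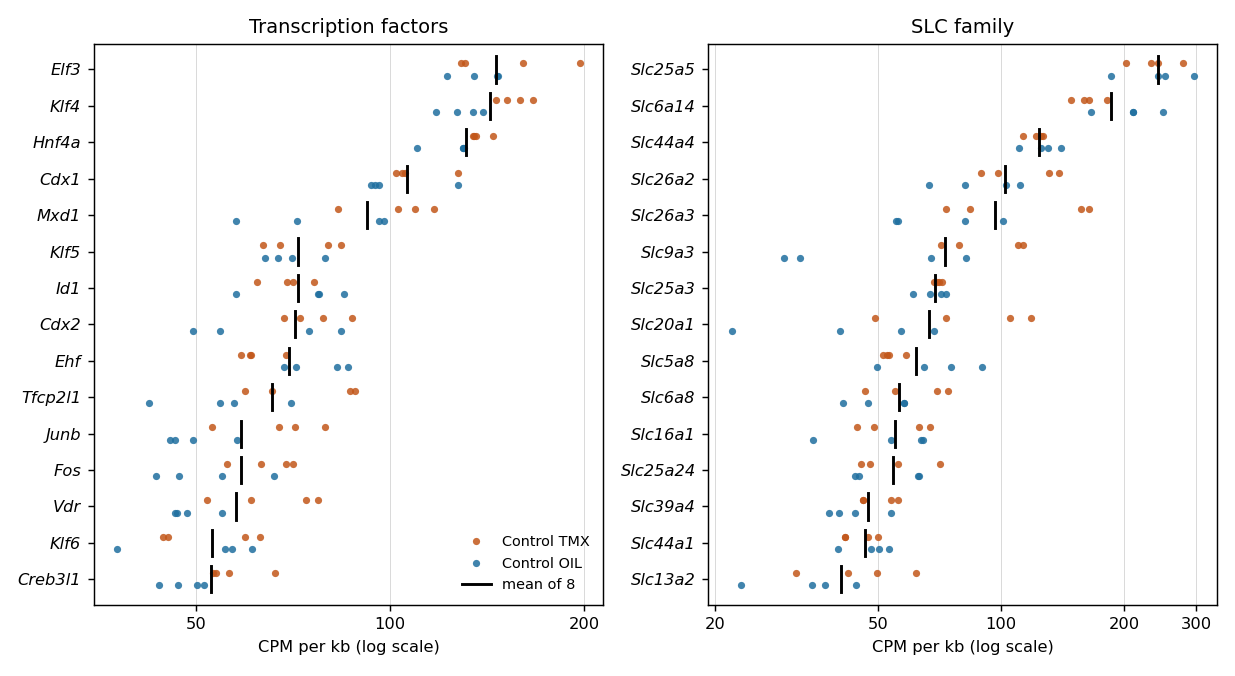
Level of the 15 leading transcription factors (left) and the 15 leading members of the SLC family (right) in CPM per kb on log scales, with 1 point per library in 2 colours for the 4 Control TMX and 4 Control OIL libraries and the mean of 8 as a black bar. Hnf4a, Slc44a4 and Slc25a3 are narrow, whereas Slc26a3, Slc9a3 and Slc20a1 spread over several-fold.

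Of 39 Hox genes, 11 reached 10 CPM in all 8 libraries, 6 of the A cluster and 5 of the B cluster. Hoxb13 (chromosome 11, 96194316 to 96197447, plus strand), the most posterior gene of its cluster, had the highest level at 48.3 ± 9.38 CPM per kb, with 49.3, 48.3, 44.3 and 40.3 in Control TMX and 44.4, 44.6, 70.5 and 44.7 in Control OIL. Control OIL replicate 3 was the highest, and all 8 values lay above every value of Hoxb6, the second highest, at 26.7 ± 4.60. Hoxb9 followed at 20.4 ± 2.27 and Hoxb5 at 11.3 ± 2.21. In the A cluster Hoxa6, Hoxa13 and Hoxa5 were highest at 9.61 ± 1.92, 9.44 ± 1.96 and 8.96 ± 1.91. Summed over the cluster, levels per length were 127 CPM per kb for B, 51.9 for A, 15.9 for D and 0.326 for C. The D cluster was led by its most posterior gene, Hoxd13, at 7.76 ± 3.06, and Hoxc11, Hoxc12, Hoxc13 and Hoxd1 had no count in any library. Hoxb9, Hoxa10 and Hoxa13 were stable.

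**Figure D3:**
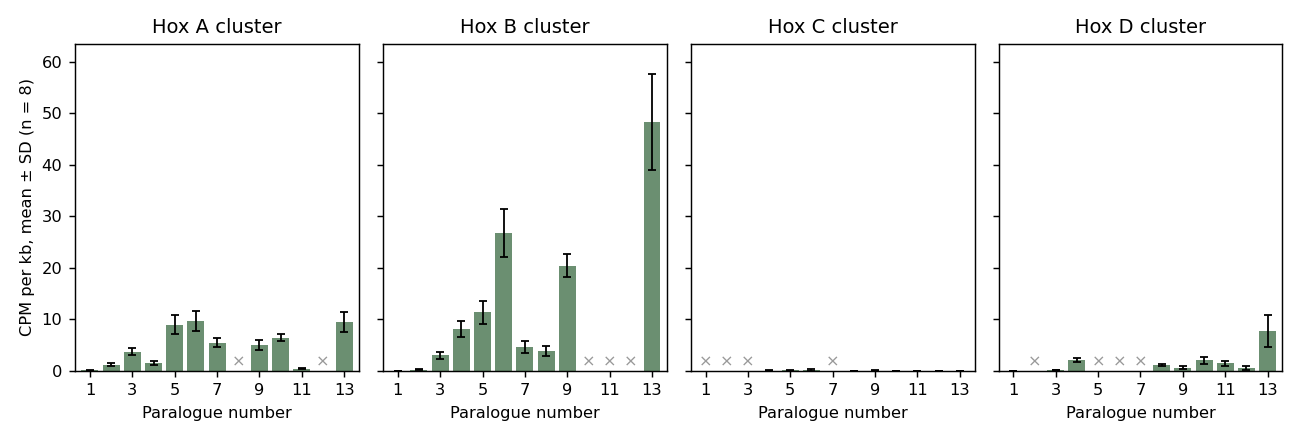
Mean level in CPM per kb with SD over the 8 control libraries (n = 8) for the Hox genes of the 4 clusters by paralogue number, from anterior (1) to posterior (13). A grey cross marks a number with no gene in that cluster, Hoxb13 is the tallest bar, and the C cluster is near 0 throughout.

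Transporters of the SLC family, the carriers that move solutes across membranes without spending ATP directly, held 2.40% ± 0.173 of nuclear protein-coding counts. Of 382 members, 146 reached 10 CPM in all 8 libraries and 79 of these were stable. Slc25a5, the mitochondrial carrier that exchanges ADP for ATP, led at 241 ± 36.4 CPM per kb and was stable. Slc6a14, a sodium- and chloride-driven carrier of neutral and basic amino acids, came second at 186 ± 34.0, with 165, 148, 159 and 182 in Control TMX and 248, 210.2, 211 and 166 in Control OIL. It lay above Slc44a4, the next in order, in all 8 libraries, with no overlap of ranges. Slc44a4, which takes up the thiamine pyrophosphate made by colonic bacteria, was stable at 124 ± 9.24, with a lowest value of 111 and a highest of 139.9.

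Carriers of salt absorption varied widely between mice. Slc26a3, the apical exchanger of chloride for bicarbonate, stood at 96.6 ± 42.2 CPM per kb. Control TMX replicates 1 and 2 were at 164 and 157, and the other 6 libraries at 55.3 to 101. Slc9a3, the apical exchanger of sodium for protons that works beside it, was at 110.2, 112.9, 78.9 and 71.4 in Control TMX and 32.2, 67.4, 29.5 and 82.1 in Control OIL, and Control OIL replicates 1 and 3 were the lowest. The phosphate carrier Slc20a1 ranged from 22.0 to 118 with a median of 62.7, and the same Control TMX replicates 1 and 2 were highest at 118 and 105. Neither Slc26a3 (edgeR adjusted p = 0.378) nor Slc9a3 (edgeR adjusted p = 0.372) was called between the groups. Carriers of bacterial fatty acids and lactate were Slc5a8 at 62.0 ± 14.1 and Slc16a1 at 55.1 ± 11.6, and the sulfate carrier Slc26a2 stood at 102 ± 24.2. The zinc importer Slc39a4, the mitochondrial phosphate carrier Slc25a3 and the choline carrier Slc44a1 were stable at 47.3 ± 6.66, 69.2 ± 3.82 and 46.5 ± 4.91, whereas the creatine carrier Slc6a8 at 56.3 ± 11.5 was not.

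Pumps and channels were listed in 7 further families, of which 93 of 310 members reached 10 CPM in all 8 libraries and 50 were stable. Among P-type ATPases, the calcium pump Atp2a3 was stable at 246 ± 25.4 CPM per kb, and Atp1b1, a beta subunit of the sodium pump, stood at 235 ± 48.8. Of the aquaporins, the water channels, Aqp8 of surface colonocytes led at 166 ± 45.1, with 199, 189, 207 and 160.1 in Control TMX and 93.3, 210.01, 105 and 164 in Control OIL. Aqp4, a basolateral water channel, was at 50.1, 42.5, 44.3 and 53.7 in Control TMX and 89.9, 69.9, 69.8 and 66.5 in Control OIL. The groups did not overlap for Aqp4, and edgeR did not call it (adjusted p = 0.0735). None of the 4 aquaporins at 10 CPM or more was stable.

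Among ABC transporters, the drug efflux pump Abcb1a led at 128 ± 50.3 CPM per kb, with Control OIL replicates 3 and 4 at 41.7 and 66.9 and the other 6 libraries at 126 to 183. Abcc3, a basolateral exporter of conjugated organic anions, stood at 92.7 ± 19.9. The calcium-activated chloride channel Ano1 and the intracellular Clic1 were stable at 34.2 ± 4.07 and 54.4 ± 5.41, and Clcn2, a basolateral chloride channel, stood at 58.0 ± 15.8 without being stable. Kcne3, a subunit of the basolateral potassium channel that supports chloride secretion, was stable at 44.7 ± 8.30, as was the potassium channel Kcnk1 at 18.9 ± 2.46. The epithelial sodium channel showed unequal subunits per length, with Scnn1a at 20.2 ± 5.25, Scnn1b at 4.04 ± 1.29 and Scnn1g at 1.46 ± 1.22. Scnn1g ranged from 0.187 to 3.60 with a median of 0.953. The cation channels Trpm4 and Trpm6, the latter a magnesium channel, stood at 45.2 ± 9.45 and 25.7 ± 4.86.

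The list of secreted products took the largest share of counts of the 4 classes. It is a wide list that also holds the membrane mucin Muc3, the receptor Pigr and the disulfide isomerase Agr2, so its shares are not those of secreted proteins alone. The 344 listed genes held 9.54% ± 0.574 of nuclear protein-coding counts, and the mucus and goblet list alone held 6.77% ± 0.749. Of the 344, 108 reached 10 CPM in all 8 libraries and 40 were stable. Besides the leading genes above, Tff3, a trefoil peptide of goblet cells, was stable at 341 ± 25.7 CPM per kb, and Spink4, a goblet cell protease inhibitor, was not at 287 ± 80.04. Retnlb, a goblet cell protein that acts on bacteria, stood at 8.36, 12.7, 9.62 and 16.2 in Control TMX and 101, 42.1, 45.8 and 27.3 in Control OIL. As with Reg3b, the groups did not overlap for Retnlb and edgeR did not call it (adjusted p = 0.113). Mptx1, a pentraxin of colonic crypt cells, stood at 421 ± 223.

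Of the 46 genes on the list of secreted proteases and inhibitors, 12 of the 21 at 10 CPM or more were stable. Among them were the inhibitor Spint2 at 135.1 ± 12.4, Prss32 at 122 ± 9.10 and cathepsin S (Ctss) at 95.8 ± 9.53 CPM per kb. Psap, also on the list, is the precursor of lysosomal activators rather than a protease or protease inhibitor, and was stable at 177 ± 15.3. The kallikrein Klk1 led the group at 439.6 ± 98.7 and was not stable. The galectins Lgals4 and Lgals3 stood at 614 ± 61.9 and 299 ± 60.7, and Lgals4 was stable. The list of growth factors and of Wnt, BMP and TGF ligands was led by Sema4g, a semaphorin rather than a growth factor, at 64.7 ± 15.01. Indian hedgehog (Ihh), a signal from mature colonocytes to the stroma, was stable at 25.5 ± 3.79, as was Metrnl at 27.0 ± 4.32. Cytokines were few: of 43 genes, 6 reached 10 CPM in all 8 libraries, led by Ccl6 at 59.4 ± 22.6, and the epithelial cytokines Il18 and Il15 stood at 45.6 ± 8.65 and 8.53 ± 2.15. Only the membrane-bound chemokine Cx3cl1, at 16.9 ± 2.88, was stable among the 6.

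Hormones of enteroendocrine cells were measurable although these cells are rare. The list of peptide hormones and granins was led by Guca2a, which is not one of the enteroendocrine markers used here. Next were the granins Chgb at 32.4 ± 6.99 and Chga at 29.3 ± 7.80 CPM per kb. Peptide YY (Pyy), a hormone of the distal gut that curbs appetite, stood at 28.3 ± 4.62. Pyy was stable, with 27.9, 25.2, 24.9 and 33.8 in Control TMX and 35.4, 21.5, 28.1 and 29.3 in Control OIL. Proglucagon (Gcg) stood at 16.2 ± 7.34 and the colonic hormone Insl5 at 11.8 ± 4.07, and neither was stable. Tph1, the enzyme that starts serotonin synthesis in these cells, was stable at 3.82 ± 0.719, and cholecystokinin (Cck), a hormone of the upper small intestine, was low at 0.832 ± 0.407.

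The share of stable genes at 10 CPM or more was 69.6% for transcription factors (160 of 230), 54.1% for the SLC family (79 of 146), 53.8% for the other transport families (50 of 93) and 37.0% for secreted products (40 of 108), against 72.6% of all 7896 genes at 10 CPM or more. The order of transcription factors, then the SLC family, then secreted products was the same in all 15 alternative settings of the stable rule. Among genes with a mean of 50 CPM or more the shares of these 3 classes were 71.7%, 47.4% and 36% and that of the other transport families was 57.4%, above the SLC family, against 75.1% of all such genes. No test was made of these shares, since genes of a class can vary together. The bars of stable share by class and level show both ranges.

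**Figure D4:**
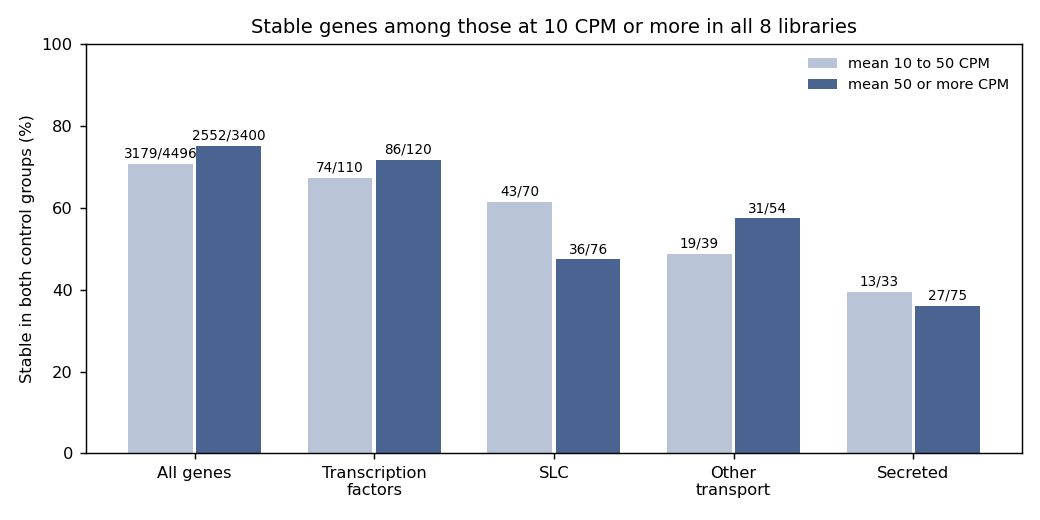
Percent of genes that were stable in both control groups, by class, among genes at 10 CPM or more in all 8 libraries, split at a mean of 50 CPM, with the number of stable genes over the number of genes above each bar. Secreted products have the lowest bars in both ranges.

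Genes failed the stable rule more often through variation within a group than through the group means. Of the 108 secreted genes at 10 CPM or more, 52 had a CV above 20% in at least 1 group and 43 had group means more than 25% apart, and a gene can be in both counts. In the SLC family these were 48 and 42 of 146, among transcription factors 48 and 41 of 230, and among all genes 1674 and 1058 of 7896. The lowest share within the secreted class was that of the defence list, with 2 of 14 stable, and within the transcription factors that of the Hox genes, with 3 of 11. Fox factors reached 13 of 15 and homeobox factors other than Hox 11 of 12.

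Core promoters were read for genes of different spread. The motif TATAAA, the core of the TATA box at which the transcription machinery can be placed, was searched on the gene's strand where it lay wholly between 40 and 15 bases before the RefSeq start (GRCm38.p6). It was in 1.99% of all 32851 RefSeq promoter windows of 300 bases. Of the 7654 nuclear protein-coding genes at 10 CPM or more, 6210 had a window and 1.59% of them held the motif. After these genes were split at the median of their CV within groups, the steadier 3827 (median CV of 8.62%) held it in 1.05% of the 3141 with a window and the more variable 3827 (median CV of 15.6%) in 2.15% of 3069. Anywhere in the window and on either strand, TATAAA was in 7.16% and 10.2% of them and in 13.6% of all windows. Windows were matched for 79.0% of the 100 leading genes and for 69.9% to 79.6% of the members of the 4 classes at 10 CPM or more, which is under the 80% set for this check, so it is void for them. The coverage of the sets above was 80.2% to 82.1%, only just past that limit. A match of these letters is a description of the window and not of a bound factor.

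Promoters of 4 leading or marker genes of colonocytes with this motif, chosen after their values were seen, are shown with that of Muc2. Muc2 lacked the exact motif at this position and reads tataag there, which the search did not count. Each sequence is 120 bases on the gene's strand, 100 before and 20 from the RefSeq start, and capitals mark TATAAA.
Reg3b (chr6:78370785-78370904, plus strand): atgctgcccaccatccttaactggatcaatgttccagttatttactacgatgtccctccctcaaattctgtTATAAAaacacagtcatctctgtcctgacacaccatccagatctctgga
1810065E05Rik (chr11:58421011-58421130, plus strand): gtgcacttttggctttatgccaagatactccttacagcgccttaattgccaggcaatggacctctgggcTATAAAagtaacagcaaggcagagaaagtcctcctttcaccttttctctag
Cyp2c55 (chr19:39006919-39007038, plus strand): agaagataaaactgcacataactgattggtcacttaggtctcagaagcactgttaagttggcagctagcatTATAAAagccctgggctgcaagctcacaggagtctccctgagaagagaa
Krt20 (chr11:99438134-99438253, minus strand): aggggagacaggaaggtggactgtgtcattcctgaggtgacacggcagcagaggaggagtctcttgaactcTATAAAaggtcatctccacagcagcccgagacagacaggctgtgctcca
Muc2 (chr7:141690240-141690359, plus strand): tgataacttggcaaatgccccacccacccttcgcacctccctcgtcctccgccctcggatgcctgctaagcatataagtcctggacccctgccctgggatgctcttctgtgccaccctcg
The motif began 29 bases before the start in Reg3b, Cyp2c55 and Krt20 and 31 before it in 1810065E05Rik. The levels of Reg3b are given above. Cyp2c55, a cytochrome P450 of colonocytes, stood at 221, 248, 533 and 669 CPM per kb in Control TMX and 518, 471, 28.8 and 58.5 in Control OIL, and 1810065E05Rik at 546, 541, 649 and 715 and 679, 615, 347 and 425. Krt20, the keratin of mature surface cells, was steadier within groups at 361, 317, 338 and 312 and 262, 267, 216 and 232.

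Few genes were called between the 2 control groups. Of 15216 genes tested with edgeR, 13 (0.0854%) passed an adjusted p of 0.05, 7 higher (0.046%) and 6 lower (0.0394%) in Control TMX, and 2005 had an unadjusted p under 0.05. Of the 351 tested transcription factors 1 was called (Rfx2, higher in Control TMX), of 252 SLC members 2 (Slc30a10 and Slc3a1, higher), of 150 tested members of the other transport families 1 (Atp11a, higher) and of 229 tested secreted genes 1 (Cpn1, higher). The median log2 difference of Control TMX minus Control OIL was 0.06, 0.05, 0.11 and 0.13 for these classes and -0.01 over all genes tested. Without a filter on low counts edgeR called 642 genes, DESeq2 called 243, and leaving out 1 library at a time gave 4 to 119 calls. The count was 4 without Control TMX replicate 3, 5 without Control TMX replicate 1, 66 without Control OIL replicate 2 and 119 without Control TMX replicate 4. With sex as a further term of the edgeR fit, an alternative added after the data were seen, 46 genes were called (35 higher and 11 lower in Control TMX), among them all 13. Of the 13 genes, Ceacam10, Cd177 and Nos2 were called in all 14 alternatives run. Duoxa2 lost the call in 1 of the 14, Cpn1 and Gm2061 in 3, Por and Slc30a10 in 4, Duox2 in 5, Lyrm7 in 6, Slc3a1 and Atp11a in 7 and Rfx2 in 8.

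The genes lower in Control TMX included Duox2, Duoxa2 and Nos2, which act in the making of oxidants. Duox2, the epithelial NADPH oxidase that releases hydrogen peroxide, was at 32.0, 48.6, 41.1 and 30.4 CPM per kb in Control TMX and 70.8, 71.9, 81.6 and 88.5 in Control OIL (log2 fold change of -1.04 ± 0.15 SE, edgeR adjusted p = 0.0208). Duoxa2, its maturation factor, which lies next to it on chromosome 2, was at 2.79, 4.44, 5.21 and 3.43 and 12.5, 10.2, 11.8 and 12.4 (edgeR adjusted p = 0.006). Nos2, the inducible nitric oxide synthase, was at 0.69, 2.18, 1.51 and 0.906 and 8.33, 6.52, 8.93 and 7.38 (log2 fold change of -2.55 ± 0.28 SE, edgeR adjusted p = 0.006). Cd177, a GPI-anchored surface protein, stood at 32.5 ± 4.26 in Control TMX and 93.0 ± 18.0 in Control OIL (SD, n = 4), and Ceacam10, also on chromosome 7, at 4.93 ± 0.82 and 19.4 ± 3.04. No library of one group overlapped the other for any of these genes. They were named because edgeR called them between these groups, so the lack of overlap adds no support of its own.

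The genes higher in Control TMX included carriers and metabolic enzymes. Slc30a10, an exporter of manganese, was at 16.02, 11.7, 13.02 and 16.5 CPM per kb in Control TMX and 5.90, 4.08, 3.02 and 6.43 in Control OIL (log2 fold change of 1.55 ± 0.22 SE, edgeR adjusted p = 0.0308). The noncoding gene Gm2061, which overlaps it on the opposite strand, was also called, and reads that fall in exons of both count for neither. Slc3a1, the subunit of a cystine carrier, was at 15.2, 16.3, 15.03 and 12.02 and 7.56, 8.10, 6.29 and 9.26. Por, the reductase that supplies electrons to cytochrome P450 enzymes, was at 38.3, 37.8, 38.5 and 37.0 and 23.5, 26.3, 20.1 and 21.4 (log2 fold change of 0.73 ± 0.10 SE, edgeR adjusted p = 0.0133). The secreted carboxypeptidase Cpn1 was at 11.3, 12.1, 10.9 and 10.6 and 2.50, 5.32, 3.21 and 4.62 and the lipid flippase Atp11a at 11.4, 13.996, 11.03 and 10.8 and 6.32, 7.80, 7.05 and 7.69.

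The ranges of summed markers did not overlap between the groups for B and plasma cells (38.1 to 59.0 CPM in Control TMX and 64.1 to 117 in Control OIL), endothelium (16.4 to 21.6 and 12.1 to 14.6), colonocytes (9200.4 to 10347 and 5879 to 9079) and the small intestine list given above. How many genes of all those tested separate in this way was not counted. A sum also follows its highest members. Igha alone had a mean of 44.9 CPM, against a median sum of 61.5 CPM for the B and plasma cell list. The small intestine list holds Reg3b, and its sum was lower in Control TMX although 5 of its 8 tested members were higher there. The summed ranges overlapped for the other lists, with myeloid markers at 46.1 to 61.2 and 56.8 to 207, T cell markers at 7.96 to 13.3 and 11.5 to 23.7, fibroblast markers at 478 to 788 and 350 to 479, and smooth muscle markers at 106 to 184 and 74.6 to 112.96. No tested gene of these lists was called, and Mzb1 was at 0 in all libraries. Their part in the differences above was not tested. In the same direction as the fibroblast markers, 36 of 38 tested genes of the secreted matrix list were higher in Control TMX, with a median log2 difference of 0.33 and no call, against 7399 of all 15216 genes tested and a median of -0.01. In the defence list 6 of 29 were higher in Control TMX and the median was -0.37, again with no call.

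Several sets of genes varied between mice within a group; these sets were chosen after their values were seen. Genes of the circadian clock, the oscillator that sets daily rhythms of expression in gut cells, split Control TMX. Per2, a repressor of the clock, was at 21.1, 16.1, 3.38 and 2.70 CPM per kb in Control TMX and 2.07, 2.74, 5.67 and 8.37 in Control OIL. The clock-driven factors Tef and Dbp were at 22.1, 20.2, 4.86 and 2.62 and at 44.8, 32.1, 3.62 and 2.30 in Control TMX, and at 1.44, 1.77, 5.14 and 8.12 and at 1.12, 1.35, 4.60 and 6.73 in Control OIL. Arntl, the activator that opposes the Per genes, ran the other way, with its lowest values in the same Control TMX replicates 1 and 2 (3.03, 2.59, 6.30 and 8.09, against 8.66, 10.1, 5.85 and 5.07 in Control OIL). Over the 15 clock genes of sufficient level the mean deviation of log2(CPM + 1) from each gene's mean over the 8 libraries was 0.83, 0.65, -0.08 and -0.32 in Control TMX and -0.69, -0.42, -0.11 and 0.14 in Control OIL. This plain mean takes Arntl, which ran the other way, with the same sign as the other genes, so it is no measure of the phase of the clock. Control TMX replicates 1 and 2 are the females of their group, and the females of Control OIL, replicates 1 and 2, had the lowest of these means. The labels used here give no time of collection.

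A list of DNA replication genes was read in the same libraries. Mcm6, a subunit of the replicative helicase, was at 4.43, 4.89, 7.06 and 12.02 CPM per kb in Control TMX and 15.1, 12.6, 11.5 and 9.77 in Control OIL, and the proliferation marker Mki67 was at 20.1, 25.1, 43.6 and 46.1 and 36.6, 39.3, 43.3 and 37.7. Over 13 replication genes the mean deviation was -0.81, -0.63, -0.21 and 0.33 in Control TMX and 0.55, 0.28, 0.33 and 0.15 in Control OIL. The signs of the replication mean and the plain mean of the clock list were opposite in 6 libraries. They were the same in Control TMX replicate 3 and Control OIL replicate 4. No test was made of the relation, and the clock mean mixes genes that run in opposite directions. The carriers Slc26a3 and Slc20a1, described above, were highest in the same Control TMX replicates 1 and 2.

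MHC class II genes singled out another library. Cd74, the invariant chain that guides class II molecules, was at 6.11, 8.20, 13.1 and 9.92 CPM per kb in Control TMX and 37.6, 13.8, 209.6 and 16.7 in Control OIL, and H2-Aa, a class II chain, was at 0.766, 1.40, 2.21 and 1.18 and 5.58, 1.57, 31.2 and 1.70. Control OIL replicate 3 was highest for both, and it was also the highest for Reg3b. Summed myeloid markers reached their maximum of 207 CPM there, and H2-Aa is on that list. The T cell score of the same library was 0.10 on the log2 scale, below the 0.81 of Control OIL replicate 1. That score rests on the 3 of 11 listed genes with a mean of 1 CPM or more, so it says little of T cells there. The part of immune cells in these values was not tested. The bars of single genes by library set these patterns beside Epcam and Hnf4a, which varied little.

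**Figure D5:**
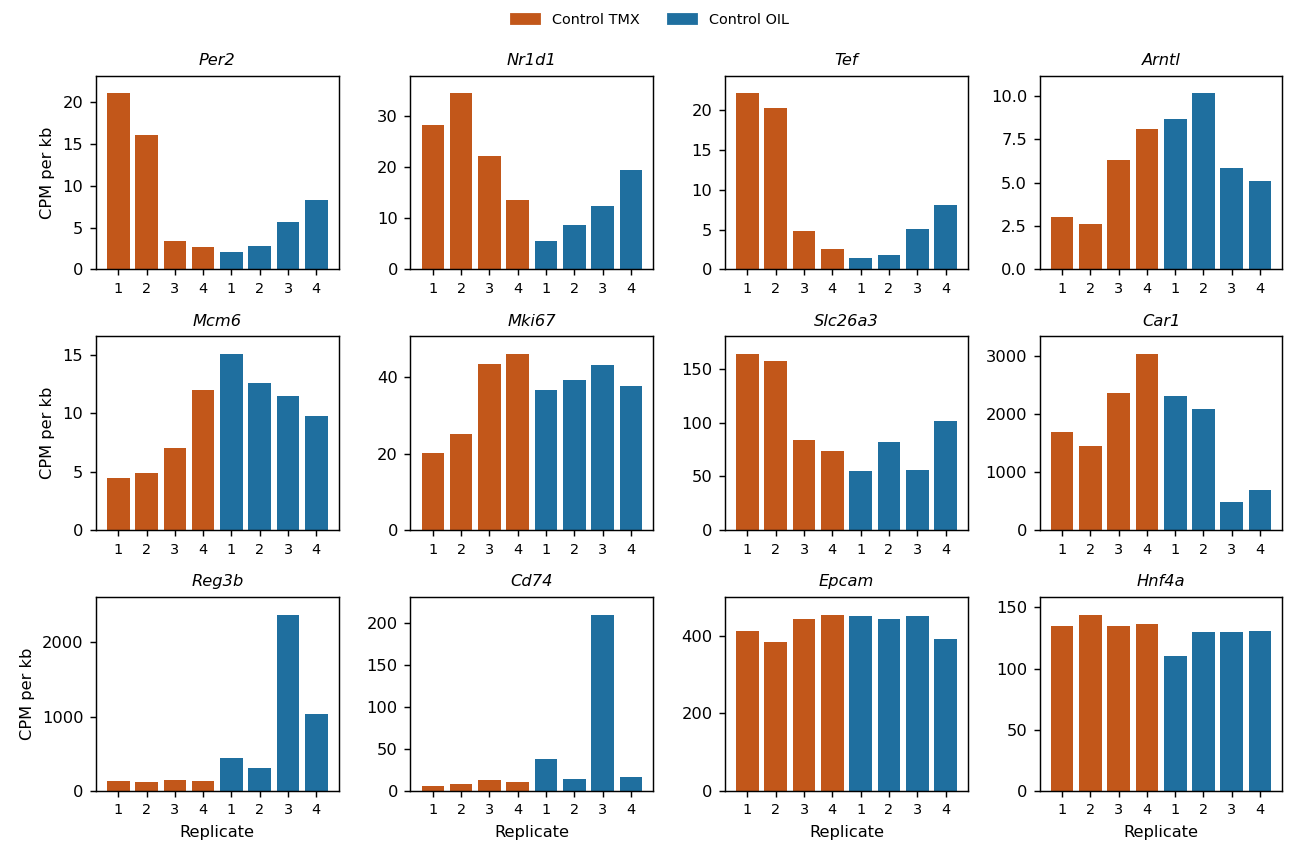
Level in CPM per kb, on linear axes from 0 with a scale of their own, of 12 genes in each of the 4 Control TMX and 4 Control OIL libraries, 1 bar per library. Per2 and Tef are high in Control TMX replicates 1 and 2, where Mcm6 and Mki67 are low, Reg3b and Cd74 peak in Control OIL replicate 3, and Epcam and Hnf4a vary little.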

How the data were processed

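RNA from colonic epithelium of 8 control mice, 4 per group by the labels, was analysed. The authors deposited raw counts, summed over all exons that carry a gene symbol. Per the file headers, featureCounts from Subread 1.6.1 read the GRCm38 annotation of Ensembl (release 98), with strand setting 0 and without reads that mapped to several places or to several genes. A further deposited column, of another kind, gives the exon length in bases per the file headers. The submitters' processing notes name STAR, without a version. Close paralogues and overlapping genes are measured by their unambiguous reads alone.

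TMM factors and the quasi-likelihood test came from edgeR 4.0.16 in R 4.3.3, on the counts that passed filterByExpr, with Benjamini-Hochberg adjustment and an adjusted p under 0.05 called. The common biological coefficient of variation was 16.9%. The test was run on simulated data first. Levels, lists and figures were computed in Python 3.11.15 with pandas 2.3.3. Of 55304 symbols, 53642 were matched to an Ensembl identifier of GENCODE M21. Named genes were the leading members of each class by CPM per kb (25 protein-coding genes, 15 transcription factors and 15 SLC members, and 3 to 5 per list), the first member of each class that was not stable, the extremes of variation, the Hox genes and the cell type markers. The genes called between the groups, and members of the lists added later, were named after their values were seen. Some genes that the rule names are not reported here. Members and lists were chosen with earlier results of these data known, and the clock, replication, class II and oxidase lists and the promoters were added after the values were seen. The SLC pattern was narrowed after values were seen, to leave out scaffold proteins named after Slc9a3.

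Each library came from another animal by its source number, and depth was 7421411 to 10344161 counts. Alternatives were DESeq2 size factors, DESeq2 1.42.0, library totals, leaving out mitochondrial genes and Gm26917, no filter, a fit of all 12 libraries, a replicate block, sex (read from Xist, at 100 CPM or more in females) as a term, other thresholds of the stable rule, TPM and leaving out each library.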

Additional observations from a re-analysis of the deposited data

Results flagged for a closer look

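Of 466 groups of 4 libraries checked for a value apart from the other 3, 19 held one, and chance flags about 1 in 20 groups. All values are CPM per kb. In Control TMX replicate 1 the value was apart and high for the mitochondrial ribosomal RNA mt-Rnr1 (33992, group median of 10945), Mir6236 (15943, median of 1934), CT010467.1 (1355, median of 290.3) and the cytokine Il18 (45.9, median of 38.5), and low for Zfp106 (14.5, median of 14.995). In replicate 2 it was high for the intestinal factors Cdx1 (127, median of 105) and Hnf4a (144, median of 135.5) and low for the collagen gene Col6a1 (6.88, median of 11.2). In replicate 3 it was high for the mucus gene Fcgbp (1303, median of 1119.9) and low for the crypt factor Sox9 (7.82, median of 11.2), and in replicate 4 it was high for the galectin Lgals4 (648, median of 576).

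In Control OIL replicate 1 the water channel Aqp4 was high (89.9, group median of 69.9) and Hnf4a low (110.0, median of 129.7). In replicate 2 the calcium pump Atp2a3 was high (272, median of 222). In replicate 3 Cdx1 (128, median of 95.4), Hoxb13 (70.5, median of 44.6) and Cd74 (210, median of 27.2) were high. In replicate 4 Pde9a was high (102, median of 35.5) and Epcam low (392, median of 447).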

How the results depend on the processing

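The count of genes called between Control TMX and Control OIL depended on the method. The main count of 13 became 642 (375 higher in Control TMX, 267 lower) without a filter on low counts and 243 (167 and 76) with DESeq2, and stayed 13 with DESeq2 size factors and in the fit of all 12 libraries. Leaving out 1 library gave 4 to 119 calls: 4 without Control TMX replicate 3, 5 without Control TMX replicate 1, 66 without Control OIL replicate 2 and 119 without Control TMX replicate 4. With sex as a further term, added after the data were seen, it was 46 (35 higher, 11 lower), with all 13 among them. With the replicate number as a block the count was 6 (2 higher, 4 lower), of which 4 were among the 13. The numbers match in sex (replicates 1 and 2 are female, 3 and 4 male), but the labels do not tie same-numbered mice to each other, and deviations of same-numbered libraries correlated at -0.21, 0.08, -0.01 and -0.32. Lost calls by gene were 8 of 14 alternatives for Rfx2, 7 for Atp11a and Slc3a1, 6 for Lyrm7, 5 for Duox2, 4 for Por and Slc30a10, 3 for Cpn1 and Gm2061, and 1, the block, for Duoxa2. The cause was not tested.

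The count of stable genes fell from 5731 to 3605 with library totals, which differ in their mitochondrial share, and lay between 4217 and 6616 under the other settings of the rule and between 5186 and 5963 without 1 library. The share of the 100 leading genes moved from 42.9% to 23.5% without mitochondrial genes and Gm26917. Genes at 1 CPM in all 8 libraries numbered 13645 to 14530. Of the 25 leading genes, 24 or 25 remained among the 25 in each alternative computed for them. Levels moved by more than 1 SD for 231 of 370 named genes without mitochondrial genes and Gm26917 and for 317 of 386 in TPM, which rescale all genes. Depth limits the low genes: a CV near 10.9% at 10 CPM is counting error.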
